A study of Mus musculus with 6 samples.

Results

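The aryl hydrocarbon receptor pathway was described in endothelial cells (EC) of the mouse lung through Cyp1a1, Cyp1b1, Ahr, Arnt, Tiparp and Nqo1, taken as every transcript row of the expression table that carries 1 of these 6 symbols. Of the 12623 genes and 17241 transcript rows of the table, 5 of the 6 genes were found, with 7 transcript rows, and Cyp1b1 was not analysed here. The genes were chosen on the difference between infant and young adult EC, so their values in that comparison are a description and carry no test.

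The 6 libraries came from EC of C57BL/6N mice, 3 from infant animals, which the study's methods place in the second week after birth, and 3 from young adult animals in the second to the third month. The labels name no altered gene and no agent for either group. Per the study's methods, living lung cells positive for CD31 and CD34 and negative for leukocyte, lymphatic and erythroid surface markers were collected by flow cytometry, and 10 ng of total RNA was amplified for each library. The study asked what changes in EC during the acquisition of quiescence, a resting state without division or sprouting.

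The aryl hydrocarbon receptor (AHR) is a transcription factor that waits in the cytoplasm, bound to chaperones, until a small molecule such as a plant or tryptophan product or a combustion product binds it. It then moves to the nucleus, pairs with ARNT and binds DNA elements with the core GCGTG. Among its best known targets are Cyp1a1 and Cyp1b1, which encode cytochrome P450 enzymes that oxidise aromatic compounds, AHR ligands included, and Tiparp, which encodes an ADP-ribosyltransferase that dampens the receptor. Nqo1 encodes a quinone reductase that responds to AHR and to the oxidative stress factor NRF2. In the lung, Cyp1a1 is known as an inducible gene of endothelial and epithelial cells.

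The sequence in front of the start site is shown for the 2 members with the largest ratio between the ages, because 1 of them holds the receptor's core element in that window and the other does not. Both windows are the 250 bases before the start in RefSeq (GRCm38.p6), written 5′ to 3′ on the strand of the gene, and capitals mark the core GCGTG.
Cyp1a1 (chr9:57697363-57697612, plus strand): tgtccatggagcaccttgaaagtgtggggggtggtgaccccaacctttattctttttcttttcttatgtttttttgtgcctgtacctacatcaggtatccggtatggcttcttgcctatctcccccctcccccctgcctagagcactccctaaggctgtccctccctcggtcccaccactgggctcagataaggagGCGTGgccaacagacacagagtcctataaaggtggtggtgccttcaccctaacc
Nqo1 (chr8:107403206-107403455, minus strand): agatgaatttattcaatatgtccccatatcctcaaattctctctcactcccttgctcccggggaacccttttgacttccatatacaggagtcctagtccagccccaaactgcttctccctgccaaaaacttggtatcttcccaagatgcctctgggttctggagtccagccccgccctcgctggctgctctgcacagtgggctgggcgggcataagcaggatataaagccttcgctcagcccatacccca
In Cyp1a1 the core begins 54 bases before the start of transcript NM_001136059. For the other measured members that hold the core, 35 bases around it are shown on the strand of the gene. The match in Tiparp lies on the opposite strand and is therefore read as CACGC.
Arnt (29 bases before the start): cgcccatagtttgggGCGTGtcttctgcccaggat
Tiparp (170 bases before the start): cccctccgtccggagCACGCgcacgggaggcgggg
The core was searched on both strands. It was found 1 time each in Cyp1a1, Arnt, Tiparp and Cyp1b1 and 0 times in Nqo1, and 28.2% of the 32851 mouse promoters of the same length hold it at least once. The hypoxia core ACGTG, which overlaps it in its last 4 letters, was found in none of these windows (16.6% of all promoters). The antioxidant core TGACNNNGC, bound by NRF2, was found 2 times in Arnt and 0 times in the others, Nqo1 included (10.2% of all promoters). No promoter window of Ahr was shown. A match describes letters only.

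Before the members' values, the content of the libraries is given, because several cell types differed between the ages. Levels are RPKM, the authors' reads normalised to transcript length and to the mapped reads of the library. Where 3 values are given for an age, they stand in the order of replicates 1 to 3. None of the 12 endothelial markers was at 0, and their summed RPKM was 3029 to 4455 in infant and 4890 to 5243 in young adult libraries. Markers of other cells were also present. Their summed RPKM was 395 to 1413 against 15.5 to 30.8 for fibroblasts (12 markers), 64.1 to 196.7 against 11.9 to 17.3 for mural cells (10), 6573 to 11613 against 1804 to 8367 for lung epithelium (10 of 12), 303 to 497 against 140 to 534 for leukocytes (9 of 12) and 9656 to 79864 against 822 to 1351 for erythroid cells (7 of 10), and 0 of these markers were absent from all libraries. Most of the leukocyte sum came from Lyz2, at 275.3 to 467.1 RPKM in infant and 134.3 to 515.5 RPKM in young adult libraries. All 9 measured leukocyte markers had a lower mean in young adult libraries, and 6 of them did not overlap between the ages (against 27.1% of all tested genes). Infant replicate 2 stood apart from the other infant libraries with the lowest fibroblast, mural and erythroid sums and the highest epithelial sum. The Y-linked gene Ddx3y was at 16.5 to 21.9 RPKM in infant and at 0 in all young adult libraries, whereas the methods name female mice, so sex composition and age cannot be told apart. In such bulk samples fewer cells of a type and less RNA per cell cannot be told apart either.

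Cyp1a1 (chromosome 9, 57687928 to 57703824) was close to the lower end of measurement in infant EC and among the most abundant transcripts in young adult EC. Its row NM_001136059 read 0.4, 0.1 and 0.6 RPKM in the infant libraries, against 143.9, 142.1 and 133.7 RPKM in those of young adult mice. All young adult libraries were far above all infant libraries, and the lowest young adult level was 223 times the highest infant level. Means were 0.367 ± 0.252 and 139.9 ± 5.44 RPKM (SD, n = 3 each), a ratio of 382. This ratio is imprecise because the table is rounded to steps of 0.1 RPKM and the infant levels are only a few steps above 0. On the scale of log2(RPKM + 1), which understates ratios of low values, the difference was 6.70 with a limma standard error of 0.14, and it ranked 1 of 12458 tested genes. The young adult libraries varied little, with a coefficient of variation of 3.89%. Ranked by mean RPKM among 12623 genes, Cyp1a1 was at place 12521 in infant EC and at place 282 in young adult EC. Of these genes 12458 reached 1 RPKM in at least 1 library, so the places are mostly among genes expressed at some age.

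**Figure D1:**
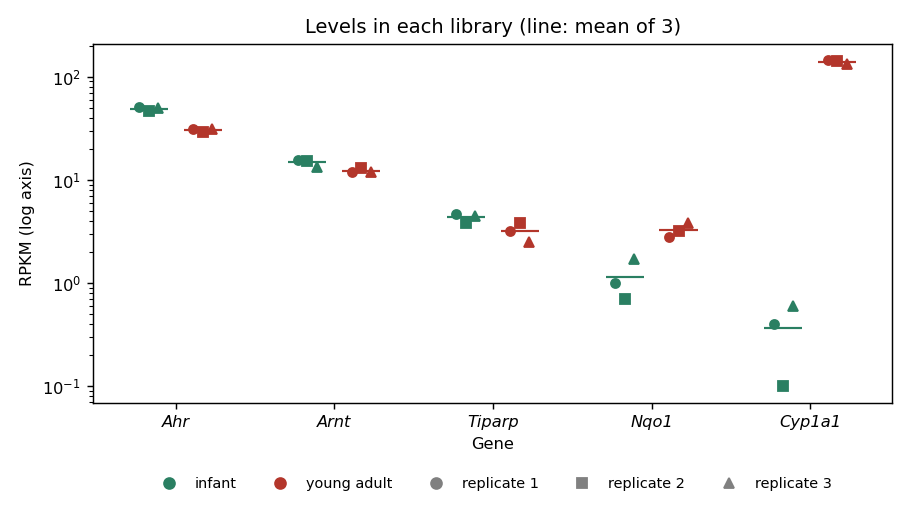
RPKM (log axis) of the 5 measured genes in each library, with infant libraries in green, young adult libraries in red, a symbol for each replicate and a line at the mean of 3. Cyp1a1 moved from the lowest level of the 5 genes in infant EC (0.1 to 0.6 RPKM) to the highest in young adult EC (133.7 to 143.9 RPKM), and only the Tiparp groups shared a value (3.8 RPKM).

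The second Cyp1a1 row gave the same picture. NM_009992 read 0.4, 0.1 and 0.5 RPKM in the infant libraries, against 137.4, 136.1 and 127.7 RPKM in those of young adult mice. In GENCODE vM21 both transcripts share exons 2 to 6 and have a last exon (exon 7) with the same start and lengths of 1255 and 1252 bases. Their first exons are separate, and the first exon lies at 57697613 to 57697699 (87 bases) in NM_001136059 and at 57687928 to 57688093 (166 bases) in NM_009992. In the young adult libraries the first row was 1.0473, 1.0441 and 1.047 times the second, while the inverse ratio of the GENCODE transcript lengths is 1.029. These lengths need not be the ones behind the RPKM. Both rows of Arnt, for example, were at 15.5 RPKM in infant replicate 1, although the same length ratio is 0.624 there. Reads of the shared exons enter both rows, so the rows are not independent and do not tell which first exon was used.

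Ahr (chromosome 12, 35497979 to 35534989), the receptor itself, differed in the opposite direction. Its RPKM was 50.7, 46.7 and 49.1 in infant EC, whereas young adult EC had 30.8, 29.1 and 31.3. The groups did not overlap. Means were 48.8 ± 2.01 and 30.4 ± 1.15 RPKM (SD, n = 3 each), a ratio of 0.623, and the log2 difference was -0.67 with a standard error of 0.09. Other scalings of the libraries left this difference between -0.58 and -0.77.

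Arnt (chromosome 3, 95434367 to 95497240), the partner that AHR shares with the hypoxia factors, was slightly lower in young adult EC. Infant EC had an RPKM of 15.5, 15.3 and 13.4, and young adult EC had 11.8, 12.9 and 12. The groups lay next to each other without overlap, with means of 14.7 ± 1.16 and 12.2 ± 0.586 RPKM (SD, n = 3 each) and a log2 difference of -0.25 with a standard error of 0.10. The other Arnt row, NM_001037737, had the same values except for 11.7 RPKM in young adult replicate 1. The level of Ahr was 3.27, 3.05 and 3.66 times that of Arnt in infant EC, and at the later age 2.61, 2.26 and 2.61 times, so that Ahr exceeded Arnt in every library.

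Tiparp (chromosome 3, 65528447 to 65555518) read 4.7, 3.8 and 4.5 RPKM in infant EC, whereas young adult EC read 3.2, 3.8 and 2.5 RPKM. Infant replicate 2 and young adult replicate 2 had the same value, so the groups overlapped. Means were 4.33 ± 0.473 and 3.17 ± 0.651 RPKM (SD, n = 3 each), with a log2 difference of -0.36 and a standard error of 0.14. The log2 differences of Tiparp and Cyp1a1, both known targets of AHR, had opposite signs, that of Tiparp with overlapping groups.

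Nqo1 (chromosome 8, 107388225 to 107403205) was higher in young adult EC, at a low level in both groups. The infant libraries had 1.0, 0.7 and 1.7 RPKM, and the young adult libraries had 2.8, 3.2 and 3.8 RPKM. The groups did not overlap, and the lowest young adult level was 1.65 times the highest infant level. Means were 1.13 ± 0.513 and 3.27 ± 0.503 RPKM (SD, n = 3 each), a ratio of 2.88 and a log2 difference of 1.02 with a standard error of 0.19.

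Set in order within each age, the infant levels ran Ahr, Arnt, Tiparp, Nqo1 and Cyp1a1, and no neighbours in this order overlapped. In young adult EC the order was Cyp1a1, Ahr, Arnt and then Nqo1 and Tiparp, whose ranges of 2.8 to 3.8 and 2.5 to 3.8 RPKM overlapped. The level of Cyp1a1 was 0.00214 to 0.0122 times that of Ahr in infant libraries and 4.27 to 4.88 times in young adult libraries.

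For the calls used from here on, a gene needed a Benjamini-Hochberg adjusted p (limma) under 0.05 and a difference beyond 0.81 on the log2(RPKM + 1) scale, which is the study's fold threshold as a log2 value. Because of the added 1, a gene of low level can lie under this threshold although its ratio of mean RPKM lies above it. Calls made up 11.4% of all 12458 tested genes, with 3.33% called higher at the young adult age and 8.1% called lower. By this rule 2 of the 5 members were called, Cyp1a1 and Nqo1, both higher, and the groups did not overlap in 4 of the 5, against 43.4% of all tested genes (16.4% higher and 27.1% lower in young adult EC). As the members were chosen on this comparison, nothing is read from these counts. The median log2 difference of all tested genes was -0.07. Infant replicate 2 had the lowest infant level of Cyp1a1, Ahr, Tiparp and Nqo1. Without it the log2 differences were 6.56 for Cyp1a1, -0.70 for Ahr, -0.22 for Arnt, -0.44 for Tiparp and 0.87 for Nqo1.

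**Figure D2:**
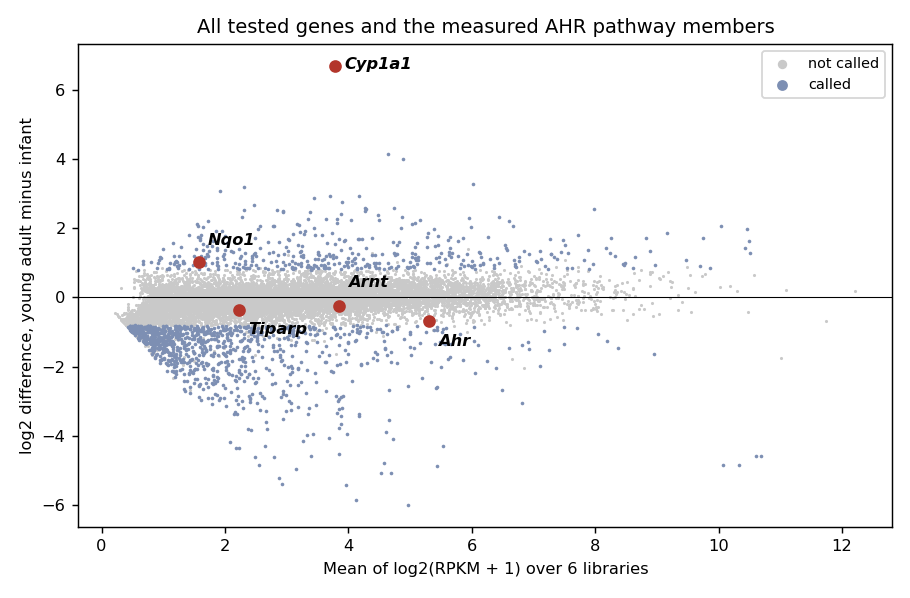
Log2 difference (young adult minus infant, on log2(RPKM + 1)) against the mean level of each of the 12458 tested genes, with called genes in blue, other genes in grey and the 5 measured members in red. Cyp1a1 is the highest point at 6.70 and Nqo1 lies at 1.02, while Ahr (-0.67), Arnt (-0.25) and Tiparp (-0.36) lie under 0. The members were chosen on this comparison, so their places are a description.

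Since lung epithelium also expresses Cyp1a1 when induced, its level was set beside the epithelial markers of the same libraries. The summed epithelial RPKM was 1804, 4807 and 8367 in the 3 young adult libraries, while Cyp1a1 stood at 143.9, 142.1 and 133.7 RPKM. Most of that sum came from Sftpc (1450.9, 2826.7 and 4883.1 RPKM) and Scgb1a1 (258.1, 1764 and 3138.3 RPKM). Ager (24.4, 50 and 59.3 RPKM), Sftpb (25.9, 50.2 and 79.6 RPKM) and Krt18 (1.2, 3.9 and 5.6 RPKM) stood in the same order. So did every other marker of the list except Hopx (28.5, 24.8 and 37.4 RPKM). Of the 10 markers, 9 had a log2 difference under 0, whereas Hopx went from 15.4 to 30.2 RPKM. The infant libraries had 6573 to 11613 RPKM of epithelial markers and 0.1 to 0.6 RPKM of Cyp1a1. The part of epithelial RNA in the level of Cyp1a1 was not tested. Per 1000 RPKM of endothelial markers, Cyp1a1 was at 0.122, 0.0224 and 0.198 RPKM in infant EC, against 29.4, 27.9 and 25.5 RPKM in young adult EC. On the same scale Ahr was at 15.4, 10.5 and 16.2 RPKM, against 6.30, 5.71 and 5.97 RPKM. Neither pair of groups overlapped after this division.

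**Figure D3:**
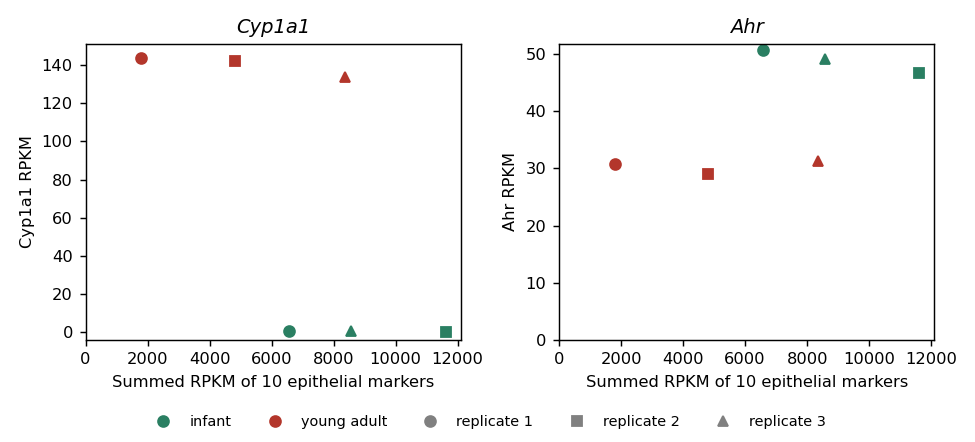
RPKM of Cyp1a1 (left) and Ahr (right) against the summed RPKM of 10 epithelial markers in each library, with infant libraries in green, young adult libraries in red and a symbol for each replicate. In the young adult libraries the epithelial sum ran from 1804 to 8367 RPKM while Cyp1a1 stayed between 133.7 and 143.9 RPKM and Ahr between 29.1 and 31.3 RPKM. Most of the epithelial sum came from Sftpc and Scgb1a1.

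A further list held genes for proteins that keep AHR in the cytoplasm or work with it on DNA. Of 12 genes listed, 10 had a row and none was called in either direction by limma (against 11.4% of all tested genes), with a median log2 difference of 0.03, while 2 had an unadjusted p under 0.05 and 1 an adjusted p under 0.05 with a change under the fold threshold. The latter was Cul4b, part of a ubiquitin ligase, at 6.33 ± 0.611 RPKM in infant and 4.47 ± 0.404 RPKM in young adult EC (log2 difference -0.42 ± 0.11 SE, adjusted p = 0.0274). The chaperone Hsp90ab1, the most abundant gene of the list, was at 320.7 ± 43.3 and 368.2 ± 45.2 RPKM. Its log2 difference of 0.20 ± 0.16 (SE) did not pass (adjusted p = 0.392) and was -0.0019 after quantile normalization.

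Of 15 further genes that AHR is known to regulate, 8 had a row. Of these, 0 rose and 2 fell (25%, against 8.1% of all tested genes that fell), and the median log2 difference was -0.58. The 2 middle genes, Ugt1a6a (-0.59) and Ugt1a6b (-0.57), set this median. They share reads and lie near the lower end of measurement, so the median says little about the list as a set. Selenbp1, which encodes a selenium-binding protein, fell from 67.9, 76.5 and 72.1 RPKM at the infant age to 19.8, 30.5 and 37.9 RPKM in young adult mice, by 1.31 on the log2 scale (SE 0.21, adjusted p = 0.00622). At both ages its 3 levels stand in the order of the epithelial sums of the same libraries. The part of epithelial RNA in this fall was not tested.

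Cyp2s1, another P450 gene, fell from 1.3, 2.8 and 2.0 RPKM to 0, 0.8 and 0.3 RPKM, by 1.16 on the log2 scale (SE 0.26, adjusted p = 0.0184), and this call was lost without infant replicate 3 (log2 difference -1.16), young adult replicate 1 (-0.96) or young adult replicate 3 (-1.15). Aldh3a1, an aldehyde dehydrogenase, was at 1.9, 4.9 and 1.0 RPKM in infant EC, against 0.1, 0.6 and 0.7 RPKM later, and did not pass (adjusted p = 0.0561). Nfe2l2, which encodes NRF2, was at 51.5 ± 5.06 and 68.5 ± 4.97 RPKM (SD, n = 3 each), a log2 difference of 0.41 ± 0.11 (SE) with an adjusted p of 0.0364 and under the fold threshold. Ugt1a1, Ugt1a6a and Ugt1a6b, which encode glucuronosyltransferases and share exons and therefore reads, lay between 0.1 and 1.9 RPKM in all libraries, with overlapping groups. The groups of Htatip2 also overlapped. Levels of Ugt1a1 stood in the order of the epithelial sums at both ages, as those of Selenbp1 did. For Aldh3a1 this held only in young adult and for Cyp2s1 only in infant EC. The part of epithelial RNA in these levels was not tested.

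Of 11 genes for enzymes that make or break down tryptophan products, some of which bind AHR, 4 had a row. Ido1, which starts the kynurenine route of tryptophan breakdown, rose from 0.1, 1.3 and 0.2 RPKM at the infant age to 3.7, 4.3 and 7.8 RPKM in young adult mice. The groups did not overlap, and the log2 difference was 2.06 ± 0.33 (SE, adjusted p = 0.00607). It was the 1 gene called on this list (25% of its 4 tested genes, against 3.33% of all tested genes that rose). Kyat3 and Kyat1, which turn kynurenine into kynurenic acid, had means of 1.27 and 4.33 RPKM at the infant age, against 2.40 and 6.03 RPKM later. Both had adjusted p under 0.05 (0.0311 and 0.0333) but log2(RPKM + 1) differences under the fold threshold. Kyat3, with a ratio of mean RPKM of 1.89, was called with a pseudocount of 0.1 and after quantile normalization (log2 difference 0.86 in both).

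**Figure D4:**
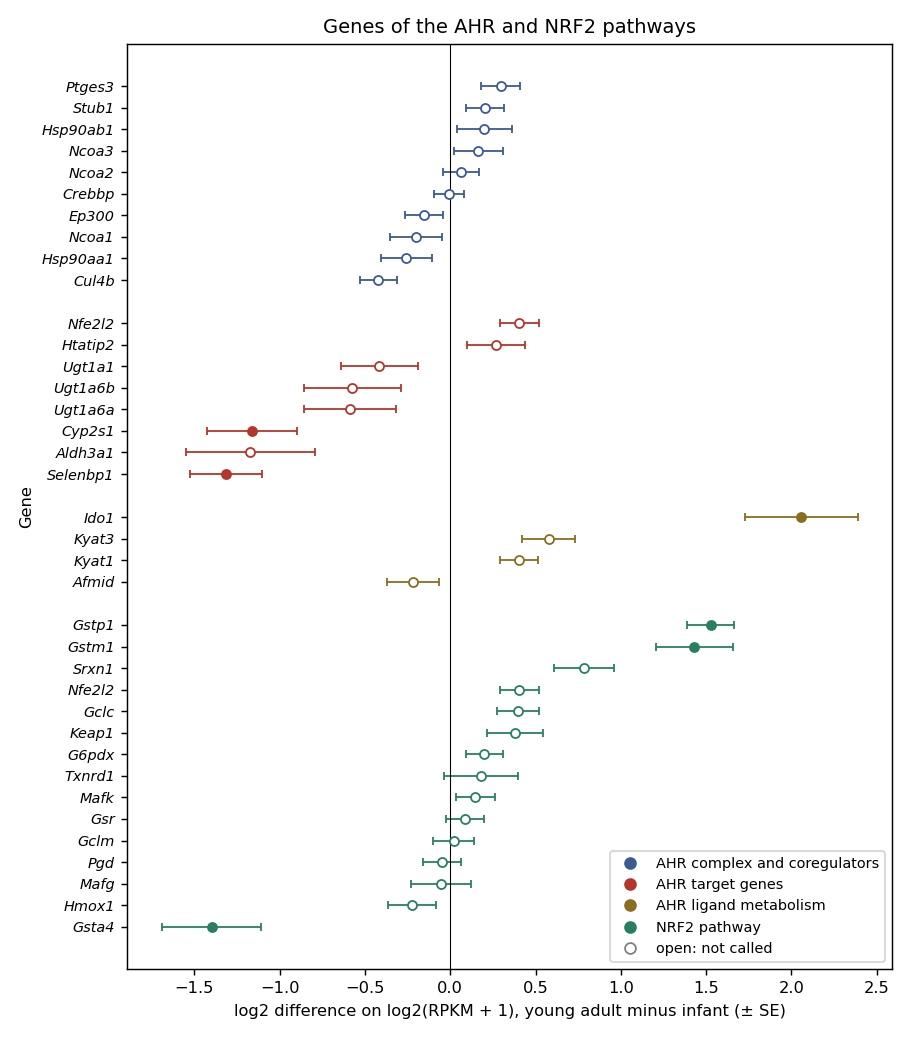
Log2 difference (young adult minus infant, on log2(RPKM + 1)) with its standard error for the measured genes of 4 lists, with filled points for called genes. Genes of the AHR complex lie between -0.42 and 0.30, Selenbp1 and Cyp2s1 are the called genes among the AHR targets, and Ido1, Gstp1, Gstm1 and Gsta4 are the called genes of the other lists.

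Nqo1 belongs to the genes under NRF2, a factor that switches on detoxifying enzymes. Of 16 other genes of that pathway 15 had a row, and 2 rose and 1 fell (20% called, against 11.4% of all tested genes), with a median log2 difference of 0.18. An adjusted p under 0.05 (limma) was reached by 6 of the 15, the called genes included. The groups did not overlap in 6 genes that were higher in young adult EC (against 16.4% of all tested genes). The same held for 1 gene that was lower (against 27.1%). Gstp1 and Gstm1, which encode glutathione transferases, rose. Gstp1 went from 96.5, 103.8 and 119.8 to 276.6, 335.1 and 315.4 RPKM (log2 difference 1.53 ± 0.14 SE, adjusted p = 0.000998). Gstm1 went from 135.1, 249.8 and 160.7 to 439.4, 496.9 and 491.0 RPKM (1.43 ± 0.23 SE, adjusted p = 0.0057).

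Both have close gene copies that can share reads, so the split between copies is uncertain. Gsta4, another glutathione transferase, fell from 7.1, 12.1 and 8.1 to 1.5, 2.9 and 4.4 RPKM (-1.40 ± 0.29 SE, adjusted p = 0.0143), and the call was lost without young adult replicate 2 (-1.43). Within each age its levels stand in the order of the epithelial sums of the same libraries, and the part of epithelial RNA in this fall was not tested. Srxn1, which repairs oxidised peroxiredoxins, was at 0.933 ± 0.289 and 2.33 ± 0.551 RPKM, with an adjusted p of 0.0191 and a log2(RPKM + 1) difference of 0.78 ± 0.18 (SE), just under the fold threshold. Its ratio of mean RPKM was 2.5, and it was called with a pseudocount of 0.1 (log2 difference 1.25), under 3 other scalings (0.82 to 1.08) and without infant replicate 2 or 3 or young adult replicate 1 (0.85 to 0.93). Gclc was at 3.83 ± 0.493 and 5.37 ± 0.643 RPKM (log2 difference 0.40 ± 0.12 SE, adjusted p = 0.0475), under the fold threshold. Keap1, the inhibitor of NRF2, was at 10.6 ± 2.20 and 14.0 ± 2.30 RPKM (adjusted p = 0.124), and Hmox1, which breaks down heme, at 10.5 ± 1.32 and 8.90 ± 1.40 RPKM (adjusted p = 0.264).

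P450 enzymes of the endoplasmic reticulum, such as the Cyp1a1 product, need electrons from the reductase Por. Por was at 61.5, 52.1 and 56.0 RPKM in infant EC, against 47.7, 49.9 and 60.2 RPKM in young adult EC, and the groups overlapped. Among the 6 electron donor genes 0 were called by limma (against 11.4% of all tested genes), while 2 had an unadjusted and 1 an adjusted p under 0.05. The latter was Cyb5r3, a reductase of cytochrome b5, at 74.9 ± 6.29 and 50.9 ± 6.03 RPKM (-0.55 ± 0.12 SE, adjusted p = 0.0185). Cytochrome b5 itself, Cyb5a, was at 225.4 ± 50.4 and 302.8 ± 15.1 RPKM and did not pass (adjusted p = 0.099). Por and Cyp1a1 thus stood at 56.5 against 0.367 RPKM in infant and at 52.6 against 139.9 RPKM in young adult EC.

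Among the 22 P450 genes of the table, Cyp1a1 changed its place from the bottom to near the top. Only 206 of the 17241 rows of the table were under 1 RPKM in all libraries. The places of Cyp1a1 are therefore mostly among genes expressed at some age, not among all P450 genes of the mouse. In infant EC Cyp1a1 shared the lowest place, 21, with Cyp11a1 and made up 0.0254% of the summed P450 RPKM. In young adult EC it was at place 2 with 5.20%, behind Cyp4b1 at 2300 ± 306 RPKM and ahead of Cyp2f2 at 83.2 ± 71.1 RPKM. The infant order was led by Cyp4b1 (1017 ± 536 RPKM), Cyp2f2 (252.8 ± 130.9 RPKM) and Cyp2e1 (48.1 ± 10.3 RPKM). Cyp2f2 is a marker of airway club cells and its 3 young adult values were 12.9, 81.7 and 155.0 RPKM, in the order of the epithelial sums, of which it is itself 1 of the 10 markers.

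Of the 21 P450 genes other than Cyp1a1, 3 rose, 3 fell and 15 were not called (28.6% called, against 11.4% of all tested genes), with a median log2 difference of -0.16. Cyp2d22 rose from 14.6, 21.2 and 15 to 45.8, 45.7 and 33.0 RPKM (log2 difference 1.25 ± 0.18 SE, adjusted p = 0.00435). Cyp4b1, a fatty acid and xenobiotic hydroxylase of the lung, rose by 1.29 ± 0.35 (SE) on the log2 scale (adjusted p = 0.0339), and its infant replicate 2 was at 1634 RPKM against 667.5 and 748.5 in the other infant libraries. Cyp4v3 rose by 0.92 ± 0.21 (SE, adjusted p = 0.0188).

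Cyp2e1, which oxidises ethanol and small solvents, fell from 49.0, 37.3 and 57.9 to 2.1, 5.5 and 3.4 RPKM (-3.44 ± 0.27 SE, adjusted p = 0.000642). Among the infant libraries, replicate 2 was lowest in Cyp2e1 and in the fibroblast sum alike. Replicates 1 and 3 stood in opposite orders, with 49.0 and 57.9 RPKM of Cyp2e1 and fibroblast sums of 1413 and 1040 RPKM. The infant mural sums (178.4, 64.1 and 196.7 RPKM) stood in the order of Cyp2e1. So did the young adult fibroblast sums (15.5, 30.8 and 27.6 RPKM), whereas the young adult mural sums (11.9, 14.2 and 17.3 RPKM) did not. The part of fibroblast and mural RNA in the fall of Cyp2e1 was not tested. Cyp4f18 fell by 1.22 on the log2 scale (SE 0.36, adjusted p = 0.0423) and Cyp2s1 is given above. The calls of Cyp4b1 and Cyp4v3 were each lost in 5 and that of Cyp4f18 in 4 of the 6 fits that left out 1 library (infant replicate 1 or 3, young adult replicate 1 or 2). Without infant replicate 2 both Cyp4b1 (1.69) and Cyp4v3 (1.16) stayed called, while without each of the other 5 libraries they did not.

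**Figure D5:**
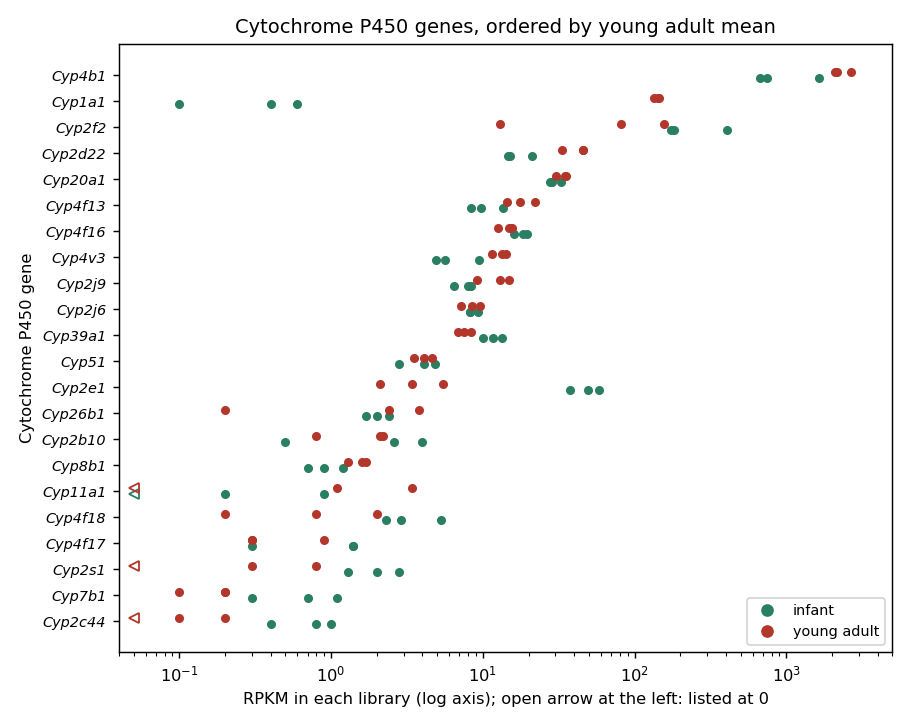
RPKM (log axis) of the 22 P450 genes in each library, ordered by the young adult mean, with infant libraries in green, young adult libraries in red and open arrows for values listed at 0. Cyp1a1 is the gene with the widest gap between the groups, from 0.1 to 0.6 RPKM in infant to 133.7 to 143.9 RPKM in young adult EC, at place 2 under Cyp4b1.

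The genes most like Cyp1a1 in their pattern were found by the total variation distance, which is the share of a gene's summed RPKM that would have to move between libraries to match Cyp1a1, over the 6 libraries and 6983 genes with a mean of at least 5 RPKM. They were Plscr2 (0.101), Ch25h (0.103), Gm4951 (0.107), Xdh (0.109) and Lrg1 (0.110). Plscr2 encodes a scramblase of membrane lipids, Ch25h makes an oxidised cholesterol, Xdh is xanthine dehydrogenase and Lrg1 encodes a secreted glycoprotein. Cyp1a1 had 99.7% of its summed RPKM in the young adult libraries, against 88.8% to 95.6% in these 5 genes. Xdh, the most abundant, read 12.2, 52.4 and 11.8 RPKM in infant EC, against 206.8, 228.3 and 171.3 RPKM in young adult EC. All 5 genes had their highest infant level in replicate 2, where Cyp1a1 had its lowest.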

How the data were processed

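Total RNA of sorted EC was sequenced in 6 libraries (3 infant, 3 young adult), grouped by their titles. Per the labels and the study's methods, the authors aligned paired-end reads to mm10 with STAR and ran DESeq2 on RefSeq genes. The authors deposited RPKM per RefSeq transcript, rounded to 0.1, in 6 columns, all of which were used. The STAR version and the RPKM program are not given in the sources used here. The reads behind each library are unknown, so no counting error is given, and an RPKM depends on all other reads of its library, globin reads included (3.41% to 23.5% of the RPKM total in infant, 0.307% to 0.487% in young adult libraries). That the replicates are biologically independent is the submitters' statement, and the number of animals behind each is not given in the sources used here.

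Symbols turned into dates were restored in 24 rows, and 3 list genes were matched under older symbols by accession. For each gene the row with the highest mean was used. Because values were RPKM, limma 3.58.1 in R 4.3.3 (lmFit, eBayes with trend, all 6 libraries, age as the only term, Benjamini-Hochberg over all tested genes) was run on log2(RPKM + 1) for the 12458 genes with at least 1 RPKM in at least 1 library. Filter and fold threshold (0.81 as log2) follow the study. The script was tested on simulated data. Positions and promoters are RefSeq GRCm38.p6 (same coordinates as mm10) and exons GENCODE vM21. Promoter windows were matched for 5 of the 6 members. Lists were fixed for the AHR complex, AHR targets, AHR ligand metabolism, electron donors, NRF2, ARNT partners, the PARP family and cell markers, and members and lists were chosen with earlier results of these data known. Named were the members, list genes that were called or of high level, called P450 genes and the 3 highest at each age, and the 5 genes most like Cyp1a1. Aldh3a1, the Ugt1a genes, Keap1, Hmox1 and the Y-linked gene Ddx3y lie outside this rule and were named after their values were seen. So were some list genes with an adjusted p under 0.05 but a change under the fold threshold. Others of that kind, such as Parp3 and Parp11, were not described. Of the genes first listed, 2 are not reported here and were left out of the counts. Alternatives were other pseudocounts, filters, scalings, variance models, the mean over rows, a replicate block and leaving out each library.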

Additional observations from a re-analysis of the deposited data

How the results depend on the processing

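No member changed its direction under any of the 18 alternatives run. The log2 difference of Cyp1a1 was 8.41 with a pseudocount of 0.1 and 4.76 with 5, and 6.56 to 6.83 without 1 library. Nqo1 gave 1.52 with a pseudocount of 0.1, 0.43 with 5 and, after quantile normalization, 1.31. Ahr gave -0.60 with a pseudocount of 5, -0.58 with equal RPKM totals, -0.60 with median of ratios, -0.73 after quantile normalization and -0.77 with equal totals without globin, where Arnt gave -0.35. Tiparp gave -0.18 after quantile normalization. With a pseudocount of 5, 578 genes were called instead of 1424, 6 instead of 11 on the pathway lists and 4 instead of 7 P450 genes. Without 1 library these counts ran from 842 to 1874, from 7 to 12 and from 3 to 8. The total moved by over 1.5 times on leaving out infant replicates 1 (927) and 3 (949) or young adult replicates 1 (842) and 2 (867). Pathway calls were 7 without young adult replicate 1, and P450 calls were 4, 3, 3 and 4 without infant replicates 1 and 3 and young adult replicates 1 and 2. The cause of these shifts was not tested. Quantile normalization moved the median of all genes by 0.11 and made 45.5% of the calls higher (527 higher, 630 lower) instead of 29.1%, and Hsp90ab1 turned to -0.0019. Of the 16 called list genes that were followed, 7 stayed called without any 1 library (Cyp2d22, Cyp2e1, Gstm1, Gstp1, Ido1, Parp10 and Selenbp1). Same-numbered libraries correlated at 0.028, -0.11 and -0.021 in their deviations from the group means, and differently numbered ones at -0.122 to 0.111. With 3 libraries an age this check cannot tell whether libraries of the same number were prepared together. With the replicate block 1371 genes were called (412 higher), 10 on the pathway lists instead of 11, as Parp12 was lost, and the same number of P450 genes. Infant levels of Cyp1a1 and Nqo1, within a few steps of 0.1 RPKM, limit their ratios.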

Other observations

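Tiparp belongs to the PARP family of ADP-ribosyltransferases, and 12 other members of the family were measured. Of these, 4 rose and 1 fell (41.7% called, against 11.4% of all tested genes), with a median log2 difference of 0.27. The 4 that rose were Parp9 (from 10.3 ± 3.09 to 19.9 ± 1.56 RPKM, SD, n = 3 each), Parp10 (from 13.8 ± 3.21 to 26.9 ± 2.0), Parp12 (from 5.20 ± 2.43 to 11.3 ± 1.93) and Parp14 (from 5.47 ± 2.29 to 13.4 ± 2.40). Their limma adjusted p were 0.0122, 0.00677, 0.0231 and 0.013. These 4 genes are known to respond to interferon. In each of them infant replicate 2 had the highest infant level, up to 17.5 RPKM in Parp10, still under every young adult level. Parp8 fell from 4.43 ± 0.416 to 2.10 ± 0.721 RPKM (adjusted p = 0.0167). Parp1, which acts in DNA repair, was at 9.40 ± 2.44 and 8.37 ± 1.48 RPKM (adjusted p = 0.648). Leaving out 1 library removed the call of Parp12 in 5 fits (all but the fit without infant replicate 2), of Parp8 in 3 (infant replicate 2 or 3, young adult replicate 1), of Parp9 and Parp14 in 2 each (without infant replicate 1 or young adult replicate 1) and of Parp10 in 0. The 5 calls of the family became 2 and 3 on leaving out infant replicates 1 and 3, and 1 on leaving out young adult replicate 1. With a pseudocount of 5, 1 call was left, that of Parp14.

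ARNT also pairs with the hypoxia factors, and the related ARNTL pairs with CLOCK in the circadian clock. Of 12 genes of this list 4 had a row and 0 were called by limma (against 11.4% of all tested genes), while 3 had an unadjusted and 2 an adjusted p under 0.05. Hif1a read 9.2, 8.8 and 9.2 RPKM in infant EC, against 6.7, 6.4 and 5.9 RPKM in young adult EC (log2 difference -0.46 ± 0.09 SE, adjusted p = 0.0123). Arntl stood at 4.8, 4.1 and 4.9 and at 7.3, 8.1 and 6.5 RPKM (0.57 ± 0.11 SE, adjusted p = 0.0127). Epas1, the hypoxia factor typical of EC, was the most abundant at 166.4 ± 43.5 and 226.3 ± 23.6 RPKM and did not pass (adjusted p = 0.115). Clock was at 7.60 ± 1.47 and 7.17 ± 1.0 RPKM (adjusted p = 0.763).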
